A study of Mus musculus with 6 samples.

Results

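MiR-221 and miR-222 are a pair of microRNAs made from neighbouring genes on the X chromosome, and both arms of each hairpin were followed here in mouse liver. They were taken by name from the list of mature miRNAs, with no use of their values, and all 4 (mmu-miR-221-3p, mmu-miR-221-5p, mmu-miR-222-3p and mmu-miR-222-5p) were found among the 1546 listed miRNAs. Small RNA sequencing, which ligates adapters to short RNAs and counts the reads of each mature miRNA, was done on samples labelled as liver tissue of C57BL/6 mice, which the study's methods give as male. The growth and treatment fields of the same labels describe the human cell line HepG2 instead, and the samples were taken here as mouse liver from their source, organism and titles. The 3 NC libraries came from mice on a normal diet and the 3 MAFLD libraries from mice on a high-fat diet, a model of metabolic dysfunction-associated fatty liver disease. Per the methods of the study, the diets started at 8 weeks of age and were fed for 16 weeks to 6 mice each, and the livers were taken after a fast of 6 hours. No transgene or deletion is named in either group. Nothing in the sources says whether a library holds 1 liver, so the p-values measure the spread between these libraries. Below, NC livers and MAFLD livers stand for the libraries of each group.

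A miRNA hairpin is cut into 2 short arms, and the arm that is loaded into Argonaute (the guide) pairs through its seed, bases 2 to 8, with messenger RNAs and represses them. The 3p arms are the usual guides of miR-221 and miR-222, and the 5p arms are mostly discarded passengers. The family is best known for repressing the cell cycle inhibitor p27 (Cdkn1b), for its activity in endothelial cells and the growing or regenerating liver, and for its rise in hepatic stellate cells, the collagen-making cells of the liver, when these become activated. No messenger RNA or protein was analysed here.

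The mature sequences are shown because the guides share their seed but not their 3′ part. They are RefSeq entries on GRCm38.p6, found for 3 of the 4 miRNAs, and run 5′ to 3′ with the seed in capitals.
mmu-miR-221-3p: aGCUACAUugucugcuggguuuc
mmu-miR-222-3p: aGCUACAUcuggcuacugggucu
mmu-miR-221-5p: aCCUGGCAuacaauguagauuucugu
The guides begin with the same 8 bases and, laid side by side without gaps, have the same base at 11 of 23 positions. The differences after the seed are what lets a read be assigned to one guide or the other. No other listed miRNA had reads within 1 of those of miR-221-3p, miR-221-5p or miR-222-3p in every library. The seed is held by 3 of 1679 mature miRNAs of the reference (0.179%), both guides and mmu-miR-1928, which was not analysed here. The passenger miR-221-5p has another seed and would pair with other messages.

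Mir221 (ENSMUSG00000065422.1) lies on the minus strand at chrX:19146294-19146388 and Mir222 (ENSMUSG00000065471.1) at chrX:19146893-19146971, in GENCODE M21 on GRCm38. The hairpins are 504 bases apart, with Mir222 upstream, and no other annotated gene overlaps them. The nearest annotated gene is Gm14636, a processed transcript on the same strand at chrX:19156981-19167241, upstream of both. The hairpins are shown as RNA to place the arms, which are in capitals.
Mir221: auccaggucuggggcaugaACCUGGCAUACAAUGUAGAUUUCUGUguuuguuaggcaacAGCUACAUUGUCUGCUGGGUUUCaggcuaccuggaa
Mir222: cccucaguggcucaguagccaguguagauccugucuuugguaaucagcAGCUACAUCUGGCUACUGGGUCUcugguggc
In Mir221 the 5p arm covers bases 20 to 45 of 95 and the 3p arm bases 60 to 82. In Mir222 the 3p arm covers bases 49 to 71 of 79.

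The values are CPM, the reads of a miRNA per 1000000 reads on all listed miRNAs of its library. Depth ran from 1336935 to 4685712 such reads, so that 3 reads, taken as the smallest level that could be shown, were between 0.640 and 2.24 CPM. The hepatocyte list (miR-122, miR-192 and miR-194) summed to between 102722 and 176512 CPM in the 6 libraries, so the defining miRNAs of liver were present in each. MiR-148a-3p alone took between 46.8% and 71.4% of the reads, with the largest shares in NC replicates 1 and 2. All CPM of a library share 1 total, so its other miRNAs together had less of it where this share was large. The same 2 libraries stood apart in a list of 4 neuronal miRNAs (miR-9, miR-124 and miR-128), with sums of 463 and 744 CPM against 50.1 CPM in NC replicate 3 and 44.2 to 63.9 CPM in the MAFLD libraries. Results are therefore also given against NC replicate 3 alone.

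MiR-221-3p was the most abundant of the 4 in every library. It was read at 77.7, 89.8 and 160 CPM in the NC livers and at 236, 122 and 186 CPM in the MAFLD livers. NC replicate 3 lay above MAFLD replicate 2, so the groups overlapped. Behind these values stand 198, 141 and 214 reads in NC and 628, 570 and 285 reads in MAFLD livers, and the 95% Wilson interval of the thinnest value, NC replicate 2, ran from 76.2 to 106 CPM. The intervals cover counting error only.

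MiR-221-5p, the passenger of the same hairpin, was read at 29.4, 28.0 and 45.6 CPM in NC and at 40.9, 37.3 and 48.2 CPM in MAFLD livers. NC replicate 3 was above 2 of the 3 MAFLD libraries. MiR-222-3p was read at 21.6, 27.4 and 30.7 CPM in NC and at 29.6, 16.6 and 22.2 CPM in MAFLD livers. Here MAFLD replicate 2 was the lowest of the 6 and NC replicate 3 the highest. MiR-222-5p was scarce, with 6, 0 and 3 reads in NC and 9, 8 and 0 reads in MAFLD libraries. It thus reached at most 3.38 CPM, and the libraries without a read allow up to 1.91 CPM in NC replicate 2 and 1.95 CPM in MAFLD replicate 3.

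**Figure D1:**
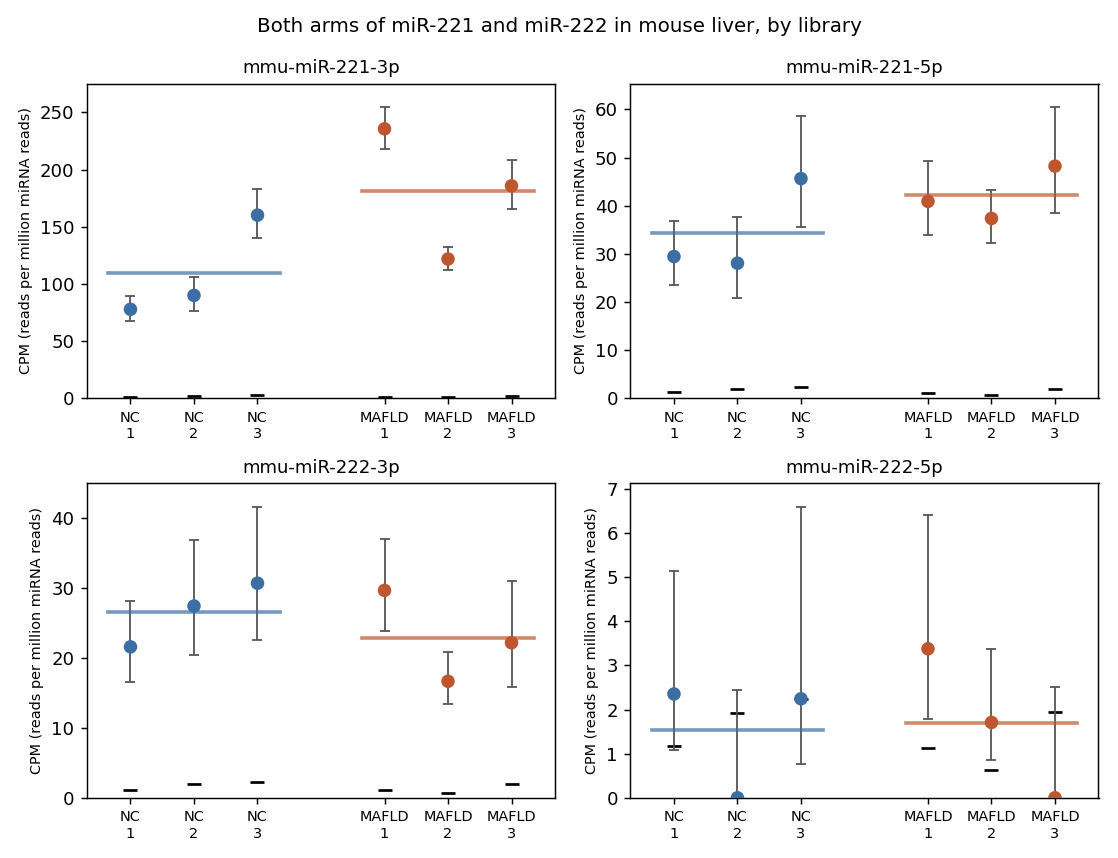
Each panel gives 1 mature miRNA, with CPM (linear, from 0) on the y axis and the 6 libraries on the x axis. Points are libraries (blue NC, orange MAFLD), whiskers are 95% Wilson intervals of counting error, coloured lines are group means and short black dashes mark the level of 3 reads. The groups overlap in all 4 panels, with NC replicate 3 at 160 CPM of miR-221-3p above MAFLD replicate 2 at 122 CPM.

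The order of the read levels was miR-221-3p, miR-221-5p, miR-222-3p and miR-222-5p in 6 of 6 libraries. Means over the 6 libraries were 145, 38.3, 24.7 and 1.61 CPM in this order. The passenger arm of miR-221 was thus read more often than the guide of miR-222, by 0.61 ± 0.42 (SD, n = 6) on the log2(CPM + 1) scale, although in NC replicate 2 the reads were 44 against 43. The steps from miR-221-3p to miR-221-5p and from miR-222-3p to miR-222-5p were larger, at 1.82 ± 0.38 (SD, n = 6) and 3.49 ± 0.95 (SD, n = 6) on the same scale. The order was read from these libraries. A two-sided exact sign-flip test of each step gave p = 0.031. As the order was picked from the same libraries, that test cannot decide whether it holds elsewhere. Ligation favours some sequences over others, so the order is one of reads, and whether it holds for molecules was not tested. Among all listed miRNAs miR-221-3p stood between place 73 and 99, and miR-222-3p between 148 and 188.

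The first question was whether the liver of MAFLD mice held more or less of each arm. None of the 4 was called. MiR-221-3p averaged 109 ± 44.5 CPM (SD, n = 3) in NC and 181 ± 57.1 CPM (SD, n = 3) in the MAFLD group. Limma put the log2 fold change at 0.75, with a 95% interval of −0.15 to 1.64, a standard error of 0.42 and a Benjamini-Hochberg adjusted p of 0.337, while the two-sided exact permutation p was 0.2. The median of the 501 miRNAs tested was 0.43 on the same scale, and 0.56 over the 238 that averaged 10 CPM or more. MiR-221-3p lay above these medians by 0.32 and 0.18, in each case less than its standard error. MiR-221-5p had 0.31 (SE 0.42, limma adjusted p = 0.702), with 34.4 ± 9.78 CPM (SD, n = 3) against 42.2 ± 5.55 CPM (SD, n = 3). MiR-222-3p went the other way, with 26.5 ± 4.61 CPM (SD, n = 3) in NC and 22.8 ± 6.52 CPM (SD, n = 3) in MAFLD livers, which gave −0.23 (SE 0.45, limma adjusted p = 0.800). MiR-222-5p had a log2 fold change of 0.041 on the log2(CPM + 1) scale, which understates changes of so scarce a miRNA, with an interval from −1.47 to 1.55.

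At an adjusted p under 0.05, 0 of the 4 were called, against 0.200% of all miRNAs tested (1 of 501). With edgeR and with DESeq2 on the recovered reads 0 of the 4 passed as well, although miR-222-3p had an unadjusted p of 0.0478 with DESeq2 (log2 fold change −0.72). At an unadjusted p under 0.05 limma passed 0 of 4 against 18.0%, which were 67 miRNAs higher and 23 lower on the CPM scale but 36 higher and 45 lower after median-ratio scaling. Groups that do not overlap were found for 0 of 4 against 19.4%. The intervals leave room for a change of over 2-fold in any of the 4.

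For miR-221-3p the lack of a call depended on NC replicate 3. In the fit without this library, which called 22.8% of all miRNAs (114 of 501), the median log2 fold change of all was 0.67. That of miR-221-3p was 1.06 (adjusted p = 0.0404 from limma), 0.39 above this median. Against NC replicate 3 as the only NC library, which limma assumes to vary like the MAFLD libraries, it was 0.12 (adjusted p = 0.999).

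Leaving miR-148a-3p out of the library totals before the CPM were formed lowered the log2 fold changes of all 4. MiR-221-3p was then at 271, 245 and 311 CPM in NC and at 443, 281 and 384 CPM in MAFLD livers. MAFLD replicate 2 lay within the NC range, so the groups still overlapped. On this scale miR-222-3p was at 75.4, 74.7 and 59.6 CPM in NC and at 55.7, 38.5 and 45.8 CPM in MAFLD livers. Every MAFLD library was thus below every NC library. On the CPM scale 19.4% of all miRNAs had groups that do not overlap, and the share on this scale was not counted. The log2 fold change of miR-222-3p was then −0.58 (adjusted p = 0.386 from limma), and that of miR-221-3p was 0.40 (adjusted p = 0.442). MiR-221-5p was at 89.3 ± 13.2 CPM (SD, n = 3) against 87.6 ± 11.5 CPM (SD, n = 3), and its log2 fold change turned to −0.025. In all 5 settings that scale the libraries in another way, including both count tests, miR-221-3p stayed above 0, miR-222-3p stayed below 0, and both 5p arms were below 0.

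The second question was whether both guides, which come from neighbouring genes, kept their proportion. A ratio within a library does not depend on its scaling. MiR-221-3p was read 3.60, 3.28 and 5.22 times for each read of miR-222-3p in the NC livers, and 7.95, 7.31 and 8.38 times in the MAFLD livers. The lowest MAFLD ratio was thus above the highest NC ratio, and the MAFLD ratios were close to each other. As a share of the reads of both guides, miR-221-3p made up 79.6% ± 3.83 (SD, n = 3) in NC and 88.7% ± 0.697 (SD, n = 3) in MAFLD livers. The 95% Wilson interval of the ratio in NC replicate 3 ran from 3.74 to 7.28 and overlapped with those of the 3 MAFLD libraries, which began at 6.29, 5.77 and 5.88.

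The mean ratio was 4.03 ± 1.04 (SD, n = 3) in NC and 7.88 ± 0.541 (SD, n = 3) in MAFLD livers, and the difference of the log2 ratios was 0.98. Its two-sided exact permutation p was 0.1. This is the smallest p that the exact test can give with 3 libraries against 3, so by that test 0.05 could not have been passed. Leaving out any 1 library kept the difference between 0.85 and 1.18. Against NC replicate 3 alone, which leaves out both libraries with the neuronal miRNAs, it was 0.57, in the same direction and smaller by over 1.5 times.

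**Figure D2:**
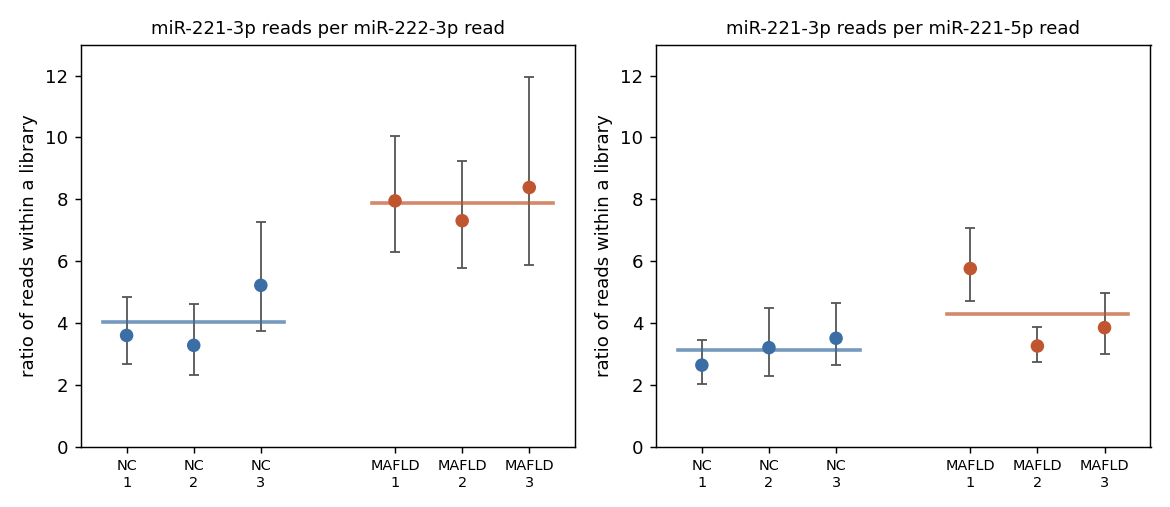
The y axes give the ratio of reads of 2 miRNAs within each library (linear, from 0), on the left miR-221-3p over miR-222-3p and on the right miR-221-3p over miR-221-5p. Points are libraries, whiskers 95% Wilson intervals of counting error and coloured lines group means. On the left the MAFLD libraries (7.31 to 8.38) sit above the NC libraries (3.28 to 5.22), and on the right the groups overlap and MAFLD replicate 1 stands highest at 5.76.

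To see how common such a shift is, the same ratio was formed for all 38 pairs of neighbouring miRNA genes on 1 strand within 10 kb of each other, with the more abundant arm of each gene and a mean of at least 10 CPM for both. Some pairs share a miRNA, and the reads of a miRNA made by several genes are those of all of them. This comparison was added after the ratio had been seen. The median size of the difference over the 38 pairs was 0.38 (log2). With all 6 libraries the miR-221-3p to miR-222-3p ratio had the largest, 0.98. Against NC replicate 3 alone, where it was 0.57, it was not the largest. For example, the log2 ratio of miR-17-5p to miR-19a-3p was 0.45 in NC replicate 3 and 1.83, 2.04 and 1.99 in the MAFLD livers. Limma over the 38 pairs gave the miR-221-3p to miR-222-3p ratio an interval from 0.42 to 1.54 (unadjusted p = 0.00288). The p adjusted over the 38 pairs was 0.109, which was not past 0.05. At an adjusted p under 0.05 limma called 0 of the 38 (0%), at an unadjusted p under 0.05 it called 7 (18.4%), and the groups did not overlap in 10 (26.3%). No other tool was run on these ratios. Ratios that part the groups were thus frequent among neighbouring genes.

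**Figure D3:**
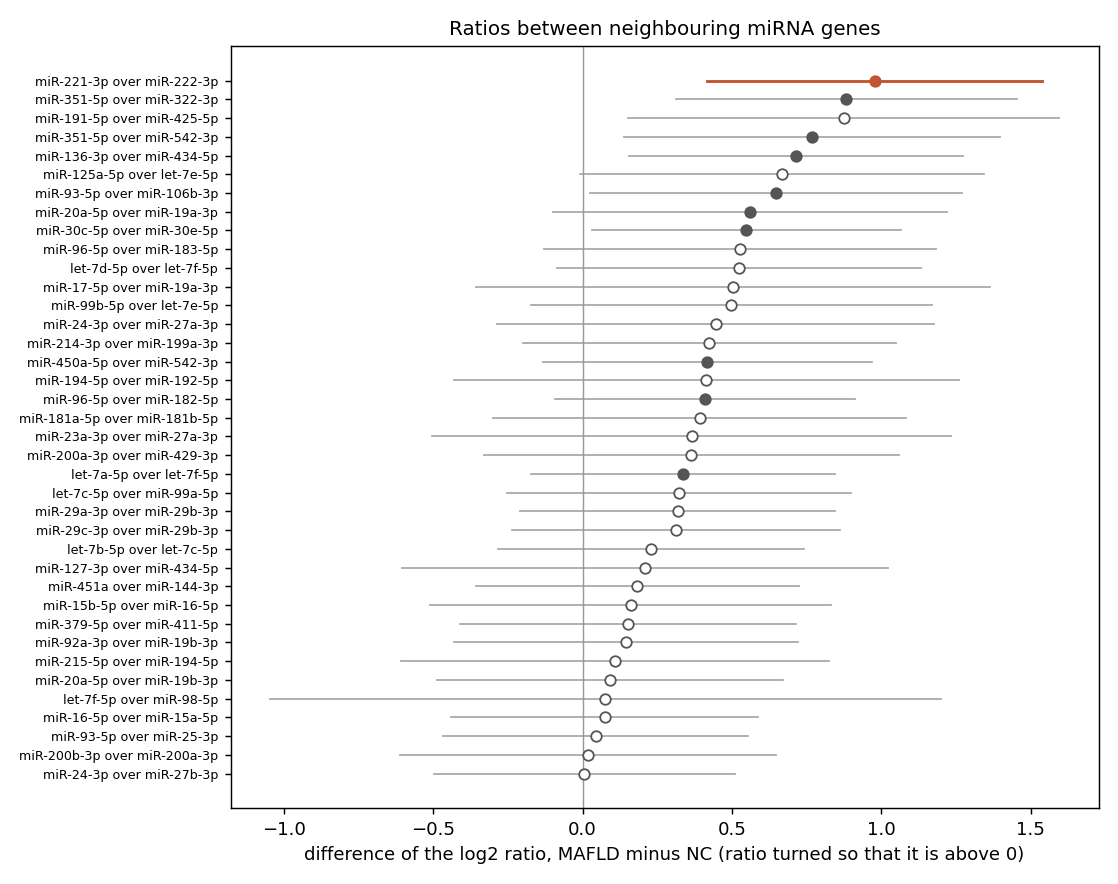
Each row is 1 of 38 pairs of neighbouring miRNA genes, and the x axis is the difference of the log2 ratio between MAFLD and NC livers, with each ratio turned so that the difference is above 0. Points are limma estimates from all 6 libraries with 95% intervals, filled where the groups do not overlap. In these estimates miR-221-3p over miR-222-3p (orange) is at the top with 0.98.

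The third question concerned the arms. The 3p arm held 72.5%, 76.2% and 77.8% of the reads of the Mir221 hairpin in NC and 85.2%, 76.5% and 79.4% in MAFLD livers. MAFLD replicate 1 was high and the other MAFLD libraries lay near the NC libraries. The log2 ratio of the 3p to the 5p arm differed by 0.43 (two-sided exact permutation test, p = 0.2). It was 0.20 without MAFLD replicate 1, and limma over the 105 pairs of arms that share a name and have a mean of at least 1 CPM each gave an adjusted p of 0.640. Of these pairs 14.3% had an unadjusted p under 0.05 and 20.0% had groups that do not overlap, and neither miR-221 nor miR-222 was among them. For miR-222 the 3p arm held between 89.8% and 100% of the reads in all 6 libraries. Its arm ratio differed by −0.27 (exact permutation p = 0.6), from 139 reads of the 3p and 9 of the 5p arm in NC and 191 and 17 in MAFLD livers, and the sign turned without NC replicate 2 (0.33) or MAFLD replicate 2 (0.048). The 5p arm thus took a larger share of the reads of the Mir221 hairpin than of Mir222 in every library.

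**Figure D4:**
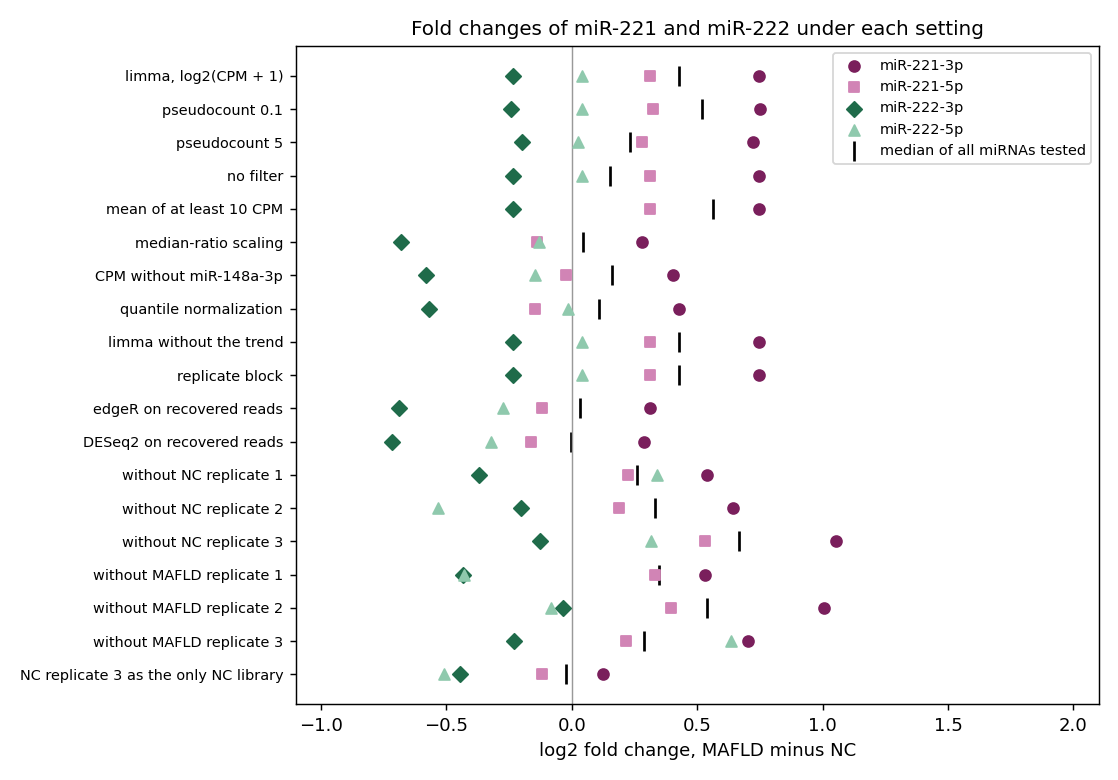
The x axis gives the log2 fold change (MAFLD minus NC) of the 4 miRNAs under each setting named on the y axis, and black bars mark the median of all miRNAs tested. Circles (miR-221-3p) are right of 0 in all settings, from 0.12 to 1.06, and diamonds (miR-222-3p) left of 0, from −0.72 to −0.034.

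The miRNAs whose pattern over the 6 libraries was most like that of miR-221-3p were named by the mean absolute difference between centred log2(CPM + 1) values, among 237 others that averaged 10 CPM or more. They were miR-374c-5p and miR-374b-5p (0.059 for both, whose reads were identical in 6 of 6 libraries and cannot be told apart), miR-151-5p (0.077), let-7j (0.085) and miR-152-3p (0.087). All are low in NC replicates 1 and 2 and high in MAFLD replicate 1, the reverse of the share of miR-148a-3p, and the part of that share in the pattern was not tested. For miR-222-3p they were miR-340-5p (0.11), miR-21a-5p (0.19), miR-181b-5p (0.20), miR-34c-5p (0.20) and miR-664-3p (0.21). MiR-21a-5p, a miRNA of injured and fibrotic tissue, was read at 46038, 75409 and 96189 CPM in NC and at 68324, 50483 and 53666 CPM in MAFLD livers, also with NC replicate 3 highest. In this measure miR-222-3p was in place 172 of 237 for miR-221-3p, behind its own passenger miR-221-5p in place 97. The guides of the pair were therefore not each other's nearest pattern.

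Other miRNAs reported in stellate cells and fibrosis were set beside the pair. Of 10 miRNAs reported to promote fibrosis, 6 had an unadjusted p under 0.05 with more reads in MAFLD livers and 0 with fewer, where 13.4% of all miRNAs were higher and 4.59% lower, and 0 passed the adjusted p with limma. With edgeR it was 0 as well. With DESeq2, which passed 28 of all 501 miRNAs, it was 2. These were miR-34a-5p (0.99 on the log2 scale, adjusted p = 0.0177) and, in the lower direction, miR-21a-5p (−0.77, adjusted p = 0.0168). Without NC replicate 3, limma passed 7 of the 10, in a fit that called 22.8% of all miRNAs (114 of 501). With all 6 libraries the median log2 fold change of the list was 0.84, against 0.43 for all miRNAs. Among the 238 miRNAs that averaged 10 CPM or more, 52 were higher and 7 lower at the unadjusted p, with a median of 0.56. MiR-34a-5p, whose gene is a target of p53, was read at 30.6, 29.3 and 56.1 CPM in NC and at 141, 74.1 and 98.4 CPM in MAFLD livers. Its groups did not overlap, which held for 1 of the 10 against 19.4% of all miRNAs. Limma gave miR-34a-5p 1.43 on the log2 scale (SE 0.44, adjusted p = 0.152). MiR-155-5p, a leukocyte miRNA, had 1.53, and miR-214-3p and miR-199b-5p of the mesenchymal miR-199/214 genes had 1.29 and 1.57, each with an unadjusted p between 0.0277 and 0.0358 and overlapping groups.

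Of 10 miRNAs reported to restrain fibrosis, 4 had an unadjusted p under 0.05 in the higher direction and 0 in the lower. The shares of all miRNAs were 13.4% and 4.59%. The median of the list was 0.93, and 0 passed the adjusted p with limma, edgeR or DESeq2. Without NC replicate 3, limma passed 6, in the fit that called 22.8% of all miRNAs. MiR-30c-5p had a log2 fold change of 1.07 and miR-19b-3p 1.04, both with groups that do not overlap. They were the only 2 of the 10 with such groups, near the 19.4% of all miRNAs. MiR-378a-3p, from an intron of a gene of energy metabolism, had 0.93, and miR-29a-3p, which represses collagens, also had 0.93. Both lists lay above the medians of all miRNAs and of those averaging 10 CPM or more (0.56), whichever way they are said to act. Under median-ratio scaling 3 of each list were higher at the unadjusted p, with 1 lower among the promoting miRNAs. Of all 501 miRNAs 36 were higher and 45 lower in that fit. With DESeq2 1 promoting and 2 restraining miRNAs were higher and 1 of each list was lower, where 29 of the 501 were higher and 54 lower. Against NC replicate 3 alone the medians of the lists were 0.013 and 0.064, beside −0.024 for all miRNAs.

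MiR-221 and miR-222 are made by several liver cell types, and in whole liver fewer cells of a type and less RNA per cell cannot be told apart. The endothelial list holds only the 2 arms of miR-126a. Both had an unadjusted p under 0.05 in the higher direction with limma, against 13.4% of all miRNAs. After each other scaling 1 of the 2 did, and against NC replicate 3 alone their median log2 fold change was 0.35. They summed to 4710 to 6587 CPM in NC and 7659 to 10155 CPM in MAFLD livers. The 5 mesenchymal miRNAs (miR-143, miR-145a, both arms of miR-199a and miR-214) summed to between 12612 and 30033 CPM in NC and between 19775 and 26950 CPM in MAFLD livers, and 2 of the 5 passed the unadjusted p in the higher direction, against 13.4% of all miRNAs. Without miR-148a-3p in the totals 2 of the 5 still passed, and after median-ratio scaling 1 did. With quantile normalization, edgeR or DESeq2 0 passed, and against NC replicate 3 alone their median log2 fold change was −0.065. On the CPM scale the median log2 fold changes of the endothelial and mesenchymal lists were 0.85 and 0.81. Lists of leukocyte and hepatocyte miRNAs had 0.80 and 0.64, also above the 0.43 of all miRNAs. Over the miRNAs that averaged 10 CPM or more the median was 0.56, and 52 of 238 were higher at the unadjusted p. Medians of the red blood cell, biliary, neuronal, muscle and pancreas lists were below 0.43. The part of any of these cells in the levels and the ratio of miR-221-3p and miR-222-3p was not tested.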

How the data were processed

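Small RNA libraries of mouse liver, 3 NC and 3 MAFLD, were analysed. The authors deposited CPM values of 1546 mature miRNAs, scaled so that each library sums to the same total. FastQC, cutadapt, Bowtie and edgeR and the build GRCm38 are named in the submitters' processing notes, and versions and settings are not given in the sources used here. Per the labels the RNA was treated before ligation to remove end and base modifications that block adapters or reverse transcription, which can change how well a miRNA is read. Dividing by the smallest value above 0 of a library gave whole reads for 100% of the values within 0.02, and counting error was described by 95% Wilson intervals on these reads. Libraries of a group differed by far more than sampling noise.

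Differences between the diets were fitted on log2(CPM + 1) by limma 3.58.1 (R 4.3.3), using eBayes with its intensity trend. The fit took the 501 miRNAs that averaged 1 CPM or more, and two-sided p-values were adjusted over all 501 by Benjamini-Hochberg. Ratios and single miRNAs were compared with exact permutation tests over the libraries in numpy 2.4.6. Alternatives were other pseudocounts (0.1 and 5), filters (none, or 10 CPM) and scalings, limma without the trend, a block for the replicate number, leaving out single libraries, and edgeR 4.0.16 and DESeq2 1.42.0 on the recovered reads. The fits were checked on simulated counts.

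The members and lists were chosen with earlier results of these data known. Besides the members, their seed family and the 5 miRNAs most like each guide, up to 4 miRNAs of each fibrosis list with the smallest unadjusted p were named. MiRNA names were matched to RefSeq sequences for 1312 of the 1546. The replicate numbers come from the sample titles. Same-numbered libraries did not deviate together (correlations from −0.046 to 0.012), so the numbers were not taken as pairs.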

Additional observations from a re-analysis of the deposited data

How the results depend on the processing

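The comparison against NC replicate 3 alone and the fits across pairs were added after the data were seen. For the changes below the cause was not tested. MiR-221-3p was above 0 in all 18 alternatives (0.12 to 1.06, adjusted p from 0.0404 to 0.999) and passed the adjusted p only without NC replicate 3. Leaving out 1 library gave 0.53 to 1.06. MiR-222-3p was below 0 in all 18 (−0.72 to −0.034), with adjusted p from 0.268 to 0.974. MiR-221-5p (0.31) turned to −0.14 with median-ratio scaling, −0.025 without miR-148a-3p, −0.15 with quantile normalization, −0.12 with edgeR, −0.16 with DESeq2 and −0.12 against NC replicate 3 alone. MiR-222-5p (0.041), which its few reads leave imprecise, turned in the same order to −0.13, −0.15, −0.014, −0.27, −0.32 and −0.51, spanned −0.53 to 0.64 over the fits without 1 library, and was not tested at 10 CPM. The ratio of the guides stayed above 0 in all 11 alternatives, and with other pseudocounts it was 0.99 and 0.92. The arm ratio of miR-221 ran from 0.20 to 0.61. That of miR-222 spanned −0.87 to 0.33 without single libraries and was 0.061 against NC replicate 3 alone.

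Of all miRNAs, 1 passed the adjusted p and 90 the unadjusted p. The former became 11 over the 1467 miRNAs with at least 1 read, 2 with median-ratio scaling, also 2 without miR-148a-3p, 0 without the trend (74 at the unadjusted p), 28 with DESeq2, and 0 against NC replicate 3 alone (37 at the unadjusted p). At 10 CPM, 59 passed the unadjusted p, among fewer miRNAs tested. Leaving out 1 library gave 0 to 114 and 40 to 177. The count was 0 without NC replicate 1 (56 unadjusted), NC replicate 2 (40), MAFLD replicate 1 (41) or MAFLD replicate 2 (89), 3 without MAFLD replicate 3 (61) and 114 without NC replicate 3. With the replicate block 5 passed, none of them a member, and the sign-flip p of the guides' ratio was 0.25, the smallest that 3 pairs allow.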
